A study of Mus musculus with 6 samples.

Results

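The neuregulins, the other epidermal growth factor (EGF) ligands and their ErbB receptors were examined in the mouse embryonic stomach at E13.5, a stage given in days of embryonic life. The set was named gene by gene and holds 9 genes: the ligands Nrg1, Nrg2, Hbegf, Areg and Ereg and the receptors Egfr, Erbb2, Erbb3 and Erbb4. Each gene was read from the array probe set annotated to its symbol alone, taking the brightest where there were several. This gave 8 of the 9 genes, each with a single such probe set, out of 19938 genes in all, and Areg was not analysed here. RNA came from whole stomach of 3 wild type samples and of 3 samples carrying Nkx3.2Cre and R26-SmoM2 (SmoM2 below), each hybridised to its own Affymetrix array. SmoM2 is a form of Smoothened that signals without hedgehog ligand. It was placed at the Rosa26 locus and switched on by a Cre recombinase driven by Nkx3.2 (Nkx3-2), a gene of the stomach mesenchyme, so the other tissue layers of these samples were not the target of the Cre. Whether a replicate was an embryo, a litter or a pool is not in the labels, so p-values rest on sample-to-sample spread that may in part be technical.

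ErbB ligands are made as membrane-anchored precursors that proteases such as the ADAM enzymes release. Binding of a ligand brings receptors together in pairs, whose kinase domains then switch on the Ras and ERK, PI3-kinase and PLC-gamma routes. Nrg1 and Nrg2 bind Erbb3 and Erbb4. Hbegf and Ereg bind Egfr and Erbb4, and Areg binds Egfr. Erbb2 binds no ligand of its own and serves as the preferred partner of the others, and Erbb3 has little kinase activity and signals through its partner. In the developing gut these genes are shared between layers: Nrg1 is made by mesenchyme and by neurons, and Erbb3 is found in epithelium and in neural crest cells that form the enteric glia.

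All values are log2 signals, so a step of 1 is a doubling, and they cannot be compared between genes because each probe set has its own brightness. The 6 arrays had medians from 8.56 to 8.62. As a guide to the dim range, genes of smell and pheromone receptors (olfactory, vomeronasal), presumed silent here, had array medians of 6.15 to 6.39 and 95th percentiles of 7.92 to 8.24. The stomach genes Barx1 (12.42 to 12.72 over the arrays) and Nkx3-2 (9.83 to 10.04) matched the tissue label. Some genes of liver and pancreas also had clear signal. Alb, a liver gene, ran from 10.31 to 12.31 in wild type and from 11.19 to 12.58 in SmoM2. Gcg, from the list of pancreas markers, ran from 12.14 to 12.63 and from 11.41 to 11.47. Of the same list, Cpa1 ran from 10.73 to 11.43 and from 9.94 to 10.23, and Pdx1 from 8.95 to 9.04 and from 8.44 to 8.74. The pancreas genes Ptf1a, Ins2 and Neurog3 lay in or near the dim range. Whether neighbouring organs were in the samples was not tested. The hedgehog targets Hhip (10.36 to 10.49 in wild type, 11.67 to 11.73 in SmoM2) and Ptch1 (12.31 to 12.36 and 12.74 to 12.90) were higher on every SmoM2 array. The female transcript Xist was at 7.11 on the wild type 1 array and between 11.43 and 12.37 on the others. The mean of 3 Y-linked genes ran from 9.07 to 10.37 in wild type and from 8.71 to 9.27 in SmoM2, so these sex-linked signals were not balanced between the groups. Wild type 2 had high signal of both kinds, with Xist at 11.94 and the Y-linked gene Eif2s3y at 10.09, near the 10.40 of wild type 1. Whether that sample held more than 1 embryo was not tested.

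Nrg1 was the member whose change passed the test, and it was higher in SmoM2. The receptors Egfr, Erbb3 and Erbb2 had every SmoM2 array below every wild type array, with changes that did not pass. The test was limma's moderated test across all 19938 genes with Benjamini-Hochberg adjustment and a threshold of 0.05. It called 1 of 8 members higher and 0 lower, where 0.326% of all genes were called higher, 0.657% lower and 0.983% in either direction. At an unadjusted p under 0.05 there were 3 of the 8 members and 2098 of the 19938 genes. The arrays of the groups did not overlap for 5 members, 2 higher and 3 lower in SmoM2, where 15.7% of all genes did not overlap (5.64% higher and 10.1% lower). With 3 arrays a group, the smallest two-sided p of an exact permutation test is 0.1, so no such test was used for single genes.

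**Figure D1:**
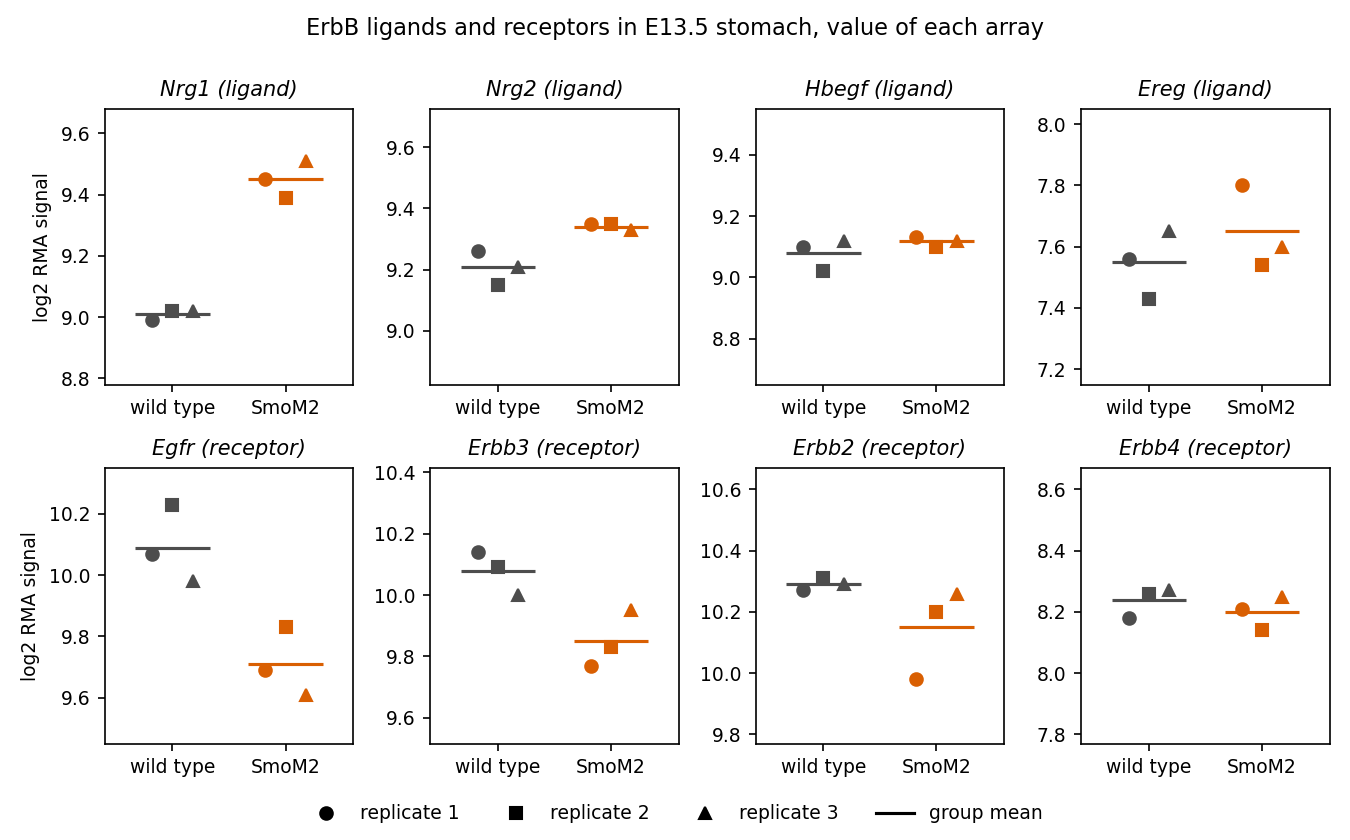
Log2 RMA signal of the 8 measured members on each array (vertical axis; every panel spans the same height), for wild type (grey) and SmoM2 (orange); symbols give the replicate number of the labels and horizontal lines the group means. Nrg1 lies between 8.99 and 9.02 in wild type and between 9.39 and 9.51 in SmoM2, while Egfr, Erbb3 and Erbb2 lie lower on each SmoM2 array.

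Among the ligands, Nrg1 had the largest change. Its signal was 8.99, 9.02 and 9.02 in wild type 1, 2 and 3, and 9.45, 9.39 and 9.51 in SmoM2 1, 2 and 3. The wild type arrays were nearly equal, and the lowest SmoM2 array stood well above the highest of them. The mean rose from 9.01 ± 0.02 to 9.45 ± 0.06 (SD, n = 3), a log2 change of 0.44 with a standard error (SE) of 0.07, or 1.36-fold with a 95% interval from 1.22 to 1.51 (limma adjusted p = 0.0201). In size this change was larger than that of 98.5% of the genes on the arrays, and it ranked 79 of all genes by p-value.

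The call, though not the size, depended on single arrays. Without wild type 1 the adjusted p of Nrg1 in limma was 0.125, without wild type 2 it was 0.0801, without SmoM2 1 it was 0.0553 and without SmoM2 3 it was 0.133. The call was kept when wild type 3 was left out, at an adjusted p of 0.0401 in limma, and when SmoM2 2 was, at 0.0265. The change itself ran from 0.41 to 0.47 in these 6 fits. With the mean Y-linked signal of each array as a covariate, which left 22 genes called in all, the change of Nrg1 was 0.45 and its limma adjusted p 0.305.

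Nrg2, the neuregulin with a receptor range close to that of Nrg1, was at 9.26, 9.15 and 9.21 in wild type and at 9.35, 9.35 and 9.33 in SmoM2. The groups did not overlap, but the gap between the nearest arrays was small. The means were 9.21 ± 0.05 and 9.34 ± 0.01, with a log2 change of 0.13 (SE 0.07, limma adjusted p = 0.531). The 95% interval of the ratio of SmoM2 to wild type ran from 0.99 to 1.21, so a change as large as that of Nrg1 lay outside it.

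Hbegf, a heparin-binding ligand of Egfr and Erbb4, was at 9.10, 9.02 and 9.12 in wild type and at 9.13, 9.10 and 9.12 in SmoM2. The groups overlapped, and the 95% interval of the ratio ran from 0.93 to 1.14. Ereg, which encodes epiregulin, was at 7.56, 7.43 and 7.65 in wild type and at 7.80, 7.54 and 7.60 in SmoM2. These values also overlapped, and they fell inside the dim range, above 87.2% to 89.0% of the olfactory and vomeronasal receptor genes on the same array. RMA, the normalization used, compresses differences at such signals. The adjusted p in limma was 0.906 for Hbegf and 0.798 for Ereg.

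Among the receptors, Egfr stood furthest from wild type. Its signal was 10.07, 10.23 and 9.98 in wild type and 9.69, 9.83 and 9.61 in SmoM2. Each SmoM2 array was below each wild type array. The means were 10.09 ± 0.12 and 9.71 ± 0.12 (SD, n = 3), a log2 change of -0.38 (SE 0.09), or 1.30-fold lower in SmoM2, with a 95% interval of the ratio from 0.67 to 0.88. The limma adjusted p was 0.103, so the change did not pass the threshold over all genes, and 357 genes had a smaller p-value. The change was between -0.44 and -0.31 when any single array was left out.

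Erbb3, the partner of neuregulin signals in epithelium and glia, was at 10.14, 10.09 and 9.997 in wild type and at 9.77, 9.83 and 9.95 in SmoM2. The groups did not overlap, with SmoM2 3 close to wild type 3. The log2 change was -0.23 (SE 0.08, limma adjusted p = 0.296), or 1.17-fold lower, with a 95% interval of the ratio from 0.76 to 0.96. With the Y-linked covariate it was -0.11.

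Erbb2, the partner receptor without a ligand, was at 10.27, 10.31 and 10.29 in wild type and at 9.98, 10.20 and 10.26 in SmoM2. The wild type arrays were close together, and most of the difference came from SmoM2 1. The log2 change was -0.14 (SE 0.08, limma adjusted p = 0.639), and it was -0.06 without SmoM2 1. Erbb4, a neuregulin receptor of heart and neurons, was at 8.18, 8.26 and 8.27 in wild type and at 8.21, 8.14 and 8.25 in SmoM2. These values overlapped and lay near the upper edge of the dim range. The 95% interval of the ratio for Erbb4 was 0.88 to 1.08 (limma adjusted p = 0.912).

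**Figure D2:**
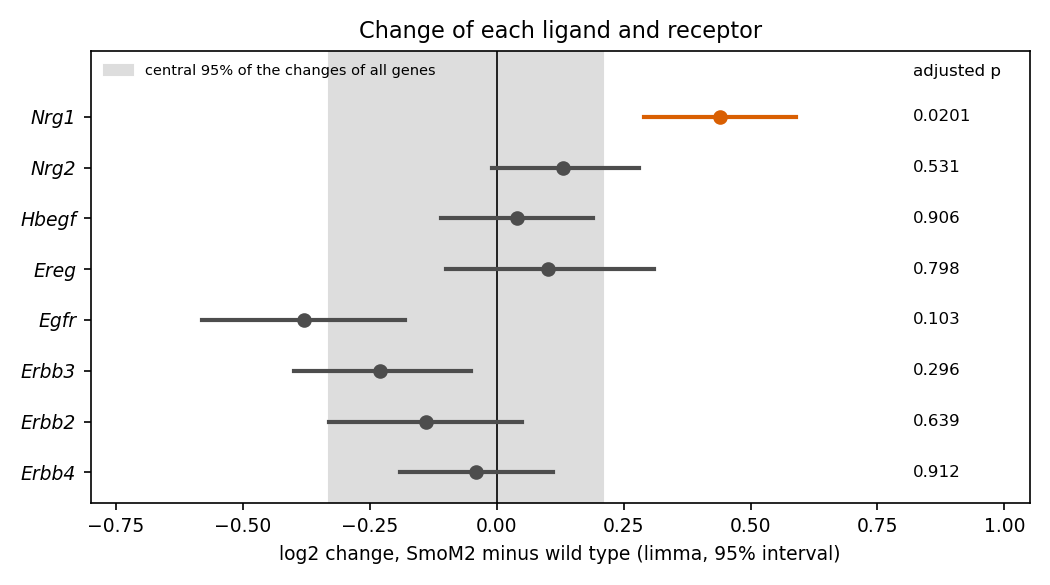
Log2 change of each member (horizontal axis, SmoM2 minus wild type) as a point with its 95% limma interval as a line; orange marks an adjusted p under 0.05, the grey band spans the central 95% of the changes of all 19938 genes (-0.33 to 0.21), and the adjusted p stands at the right. Nrg1 and Egfr lie outside the band on opposite sides, and of these 2 the change of Nrg1 passes the test.

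By role, the 4 measured ligands had positive changes (median 0.12) and the 4 receptors negative ones (median -0.18). The sign of Erbb4 turned with each array centred on its 75th percentile (0.0008) and with array weights (0.03), and that of Ereg turned with the Y-linked covariate (-0.001). Over all genes the median change was 0.002 and 49.2% of the changes were negative. The median size of a change, regardless of sign, was 0.14 among the members and 0.07 over all genes. Relative to the wild type mean of each gene, the ligands averaged 0.22, 0.13 and 0.18 higher in SmoM2 1, 2 and 3, and the receptors averaged -0.26, -0.17 and -0.16. These averages describe the members and were not tested.

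The sequence before the start site is shown for Egfr and Erbb2, the receptors on mouse chromosome 11 whose arrays did not overlap and for which a promoter was at hand. RefSeq promoters (build GRCm38.p6) were found for 4 of the 9 members: Egfr, Erbb2, Erbb4 and Areg. Each line gives the 250 bases before the start, 5′ to 3′ on the plus strand, at chr11:16751953-16752202 for Egfr and chr11:98412234-98412483 for Erbb2. Capitals mark CCACCCA, the end of the motif GACCACCCA that Gli factors, the transcription factors of the hedgehog pathway, are known to bind.
Egfr: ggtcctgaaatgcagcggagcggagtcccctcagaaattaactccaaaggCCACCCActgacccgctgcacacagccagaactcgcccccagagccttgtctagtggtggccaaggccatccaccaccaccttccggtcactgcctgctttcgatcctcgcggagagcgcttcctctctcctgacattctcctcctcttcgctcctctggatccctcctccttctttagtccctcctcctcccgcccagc
Erbb2: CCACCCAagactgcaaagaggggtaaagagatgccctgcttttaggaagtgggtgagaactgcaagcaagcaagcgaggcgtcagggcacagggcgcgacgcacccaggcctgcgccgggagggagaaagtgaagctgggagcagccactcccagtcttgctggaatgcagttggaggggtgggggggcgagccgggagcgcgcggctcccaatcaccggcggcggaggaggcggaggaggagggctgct
The whole motif GACCACCCA, read on both strands (TGGGTGGTC on the other), was in neither window, nor in those of Erbb4 and Areg, and was in 0.225% of 32851 promoter windows of this length. The 7 letters CCACCCA, which the whole motif contains, were in the windows of Egfr, Erbb2 and Areg and in 8.11% of all windows on either strand. In Egfr they began 200 bases before the start, and in Erbb2 at the first base of the window. The letters before them in Erbb2 lay outside the window, so whether the whole motif stands at that site was not read. They were searched after the Egfr window had been seen. A match of letters is a description, and the arrays did not measure binding.

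The other genes of the pathway were taken from 5 lists. In limma 0 of the 87 measured genes passed the threshold over all genes. At an unadjusted p under 0.05 there were 11 of the 87, beside 2098 of all 19938 genes. Of these 87 genes 34 had a positive and 53 a negative change (median -0.03). Changes as small as this median can turn sign with the centring of the arrays. The groups did not overlap for 15 of the 87, 7 higher and 8 lower. Over all genes 15.7% did not overlap, 5.64% higher and 10.1% lower. With the same genes and other settings of the fit, between 0 and 17 passed.

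The other ErbB ligands, Nrg3, Nrg4, Egf, Tgfa, Btc and Epgn, had changes between -0.10 and 0.10, and the groups overlapped in each of the 6. Nrg3 was at 7.40, 7.42 and 7.55 in wild type and at 7.68, 7.46 and 7.54 in SmoM2. Egf was at 8.77, 8.55 and 8.75 and at 8.68, 8.58 and 8.52. Nrg3, Nrg4, Btc and Epgn lay within the dim range (6.53 to 7.91 over all arrays), so little can be read from their changes.

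All 10 measured genes of the shedding list had negative changes, from -0.31 to -0.03. Centring each array on its 75th percentile, which shifts all genes alike, took the change of Erbb4 from -0.04 to 0.0008. The smallest negative changes of the shedding list would lose their sign by that shift. Adam12, a metalloprotease that can release Hbegf, was at 10.03, 10.16 and 9.99 in wild type and at 9.64, 9.85 and 9.77 in SmoM2, a log2 change of -0.31 (SE 0.08, limma adjusted p = 0.141). Adam10, which had the other pair of groups that did not overlap and was named after its values were seen, had a change of -0.12. Bace1, a protease that cuts Nrg1, also had a change of -0.12 (limma adjusted p = 0.718), with overlapping groups. With array weights the change of Bace1 was 0.01, so its sign was not settled.

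Adaptors and transducers had a median change of -0.05, with 22 of 29 negative. Signs of changes this small also depend on how the arrays are centred. For 6 of the 29 all SmoM2 arrays lay below all wild type arrays, as they did for 10.1% of all genes. Grb7, an adaptor that binds activated Erbb2, was at 9.74, 9.74 and 9.85 in wild type and at 9.43, 9.46 and 9.56 in SmoM2 (log2 change -0.29, limma adjusted p = 0.12). Vav3, a signalling protein recruited to active receptors, had a change of -0.25 with overlapping groups (limma adjusted p = 0.385).

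Among the 26 measured genes listed as inhibitors and turnover factors of the receptors, Lrig1 came closest to the threshold. The list also holds genes with other roles, such as Hspd1 and Memo1. Lrig1, a membrane protein that promotes the degradation of ErbB receptors, was at 10.32, 10.19 and 10.19 in wild type and at 10.53, 10.59 and 10.70 in SmoM2. Every SmoM2 array was above every wild type array, with a log2 change of 0.37 (SE 0.08), or 1.29-fold, and a limma adjusted p of 0.0659. It passed among genes above the median probe set (adjusted p = 0.033), with repeated quantile normalization (adjusted p = 0.0401) and with an intensity trend in limma (adjusted p = 0.0316), at changes of 0.37, 0.41 and 0.37. It passed in 0 of the 6 limma fits that left out 1 array (adjusted p from 0.0857 to 0.306, changes from 0.32 to 0.41), and its adjusted p was 0.265 with the Y-linked covariate. Its relative Lrig2 had a change of -0.27 with overlapping groups (limma adjusted p = 0.476). The feedback genes Errfi1, Spry1, Spry2, Spry4 and Dusp6, which ERK signals induce and which were named after their values were seen, had changes of -0.05, 0.00, -0.07, 0.04 and 0.15, each with overlapping groups.

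Of 16 immediate early and ERK response genes 13 had positive changes (median 0.08). Myc, a growth regulator that many pathways induce, was at 11.43, 11.43 and 11.46 in wild type and at 11.59, 11.92 and 11.89 in SmoM2. SmoM2 1 was the lowest of its group and still above wild type. The log2 change was 0.36 (SE 0.09, limma adjusted p = 0.135), and when single arrays were left out it ran from 0.30 to 0.47, with adjusted p from 0.0371 without SmoM2 1, the 1 of 6 such fits in which it passed, to 0.511 without SmoM2 3. With the Y-linked covariate the limma adjusted p was 0.661. Phlda1 had a change of 0.20 (limma adjusted p = 0.435).

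**Figure D3:**
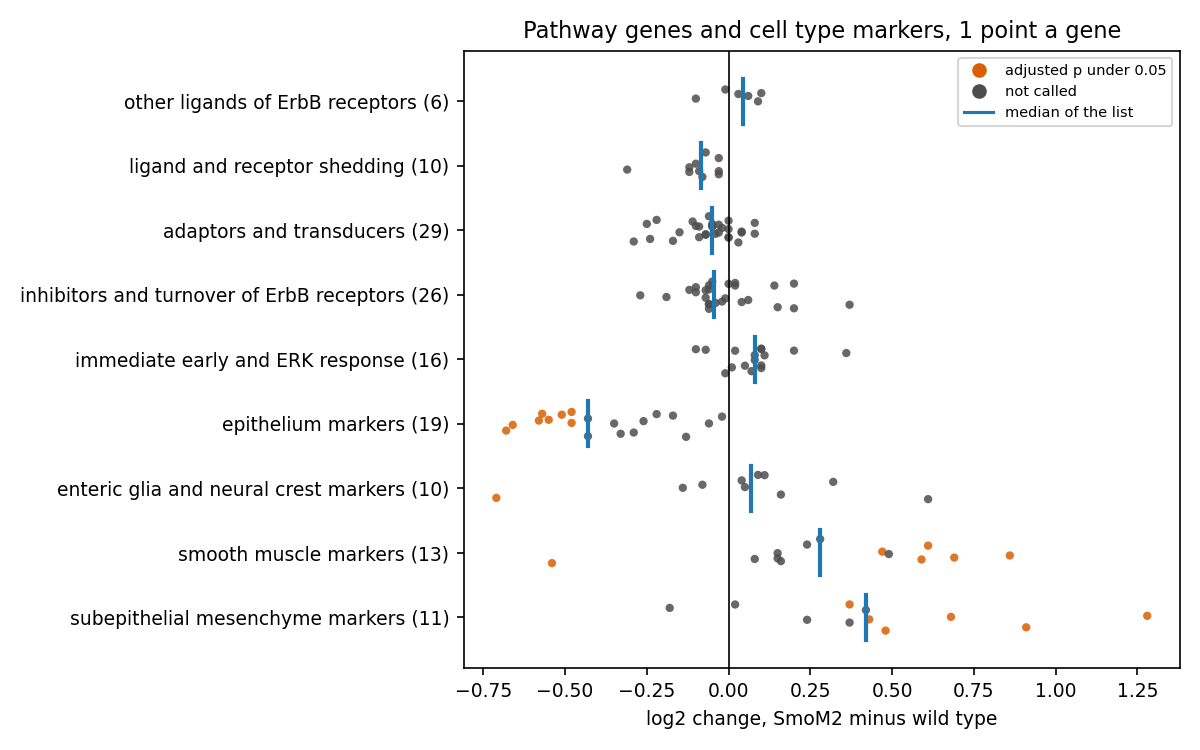
Log2 change (horizontal axis, SmoM2 minus wild type) of each measured gene of the 5 pathway lists and of 4 lists of cell type markers (number measured in brackets), 1 point a gene; orange points have an adjusted p under 0.05 and blue lines are list medians. The pathway lists have medians between -0.08 and 0.08, the epithelium markers a median of -0.43 and the subepithelial mesenchyme markers one of 0.42.

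Markers of the layers that make these genes also differed between the groups. Each array held all cell types of the stomach, so fewer cells of a type and less RNA per cell cannot be told apart. Beside Egfr and Erbb3, which epithelium makes, 19 of 20 epithelium markers were measured. All 19 had negative changes, 8 fell and 0 rose, and their mean per array was 9.88 to 10.03 in wild type and 9.55 to 9.64 in SmoM2. Esrp1, a splicing factor of epithelium, had a log2 change of -0.68 (limma adjusted p = 0.0245) and Cldn6, a tight junction protein, one of -0.66 (adjusted p = 0.0121). The list's median of -0.43 was further from 0 than the changes of Egfr, Erbb3 and Erbb2, and its part in those changes was not tested.

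Beside Erbb3 in the enteric glia, 10 of 13 markers of glia and neural crest were measured, of which 1 fell and 0 rose, with a median change of 0.07 and array means of 9.39 to 9.56 in wild type and 9.43 to 9.57 in SmoM2. The gene that fell was Fabp7, a fatty acid binding protein of glial precursors (log2 change -0.71, limma adjusted p = 0.0199). Cdh19, a cadherin of the same lineage, had a change of 0.61 (adjusted p = 0.125). Sox10, the factor that defines this lineage and was named after its values were seen, was at 9.65, 9.45 and 9.62 in wild type and at 9.76, 9.55 and 9.72 in SmoM2, with overlapping groups.

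Beside Nrg1, 11 markers of the mesenchyme under the epithelium were measured, of which 6 rose and 0 fell, with array means of 11.13 to 11.21 in wild type and 11.60 to 11.67 in SmoM2. This list holds the hedgehog targets Hhip (log2 change 1.28, limma adjusted p = 0.000175) and Foxf2 (0.91, adjusted p = 0.00197), so it reads pathway activity as well as cell type. Of 13 smooth muscle markers 5 rose and 1 fell, with Myocd, the coactivator of smooth muscle genes, at 0.86 (adjusted p = 0.00111), the actin Actg2 at 0.69 (adjusted p = 0.0405) and desmin, Des, as the member that fell. Enteric neurons also make Nrg1. Of 13 neuron markers 4 fell and 0 rose, with array means of 9.52 to 9.65 in wild type and 9.12 to 9.30 in SmoM2, and the other 9 did not pass. The part of any of these layers in the change of Nrg1 was not tested.

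The 5 genes most like Nrg1 over the 6 arrays were Idi1, Fhl2, Apela, Cnn2 and Angptl6. Likeness was the root mean square difference of log2 values after subtracting each gene's own mean, among genes at or above the median level, and ran from 0.032 for Idi1 to 0.048 for Angptl6. Idi1, an enzyme of isoprenoid synthesis, was at 10.96, 10.93 and 11.02 in wild type and at 11.37, 11.34 and 11.48 in SmoM2. Like Nrg1 it was lowest on SmoM2 2 and highest on SmoM2 3 within its group. Fhl2, a LIM domain protein, was at 9.70, 9.72 and 9.65 and at 10.08, 10.01 and 10.18. The changes of the 5 genes ran from 0.35 to 0.44. This is a description of these 6 arrays, and it includes the difference between the groups.

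**Figure D4:**
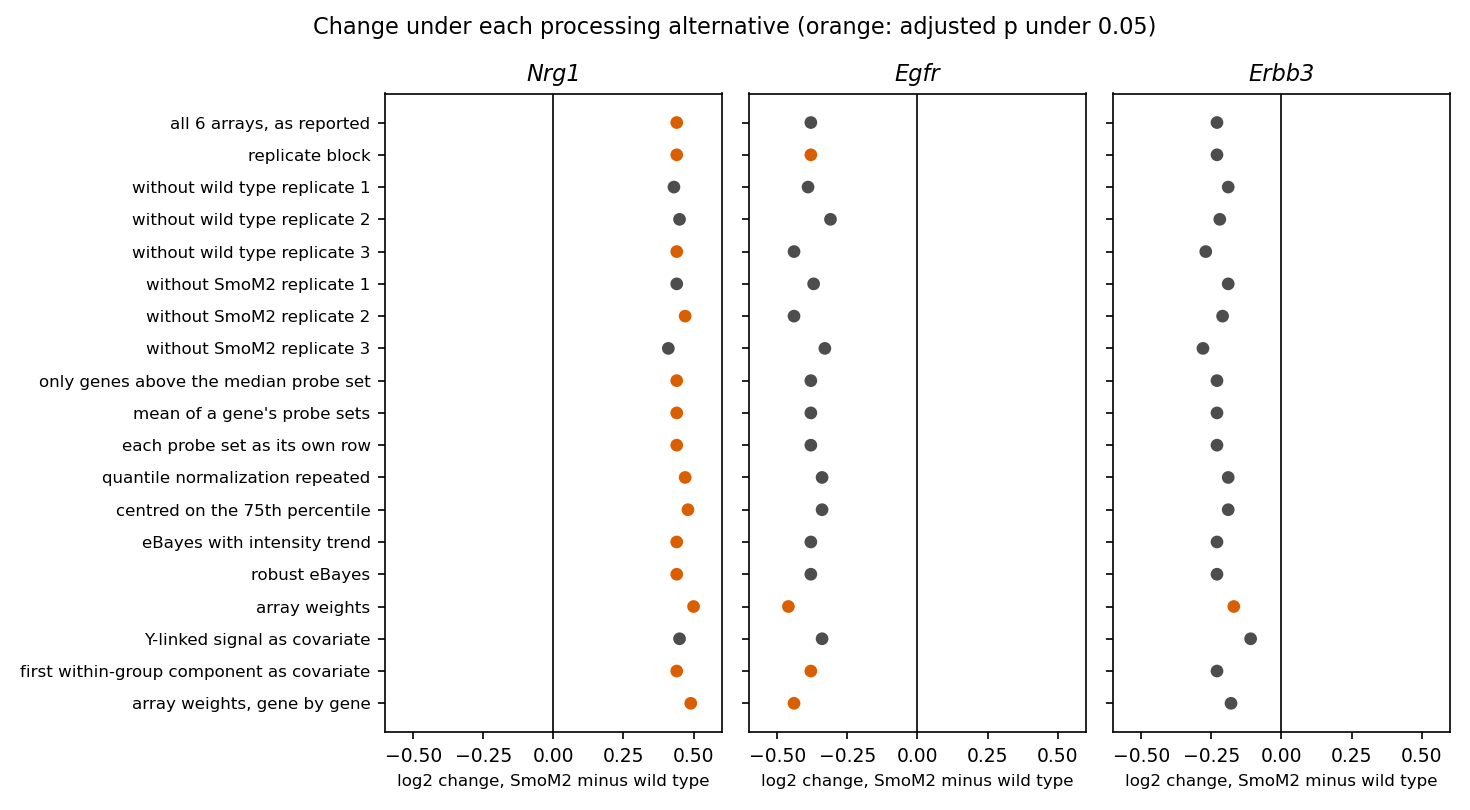
Log2 change (horizontal axis, SmoM2 minus wild type) of Nrg1, Egfr and Erbb3 in the fit as reported and in each of 18 alternatives (vertical axis); orange points have an adjusted p under 0.05. The change of Nrg1 stays between 0.41 and 0.50 and its adjusted p crosses the threshold in 5 alternatives, while Egfr stays between -0.46 and -0.31 and passes in 4.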

How the data were processed

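The authors deposited log2 signals of 35556 probe sets on 6 arrays, 3 wild type and 3 SmoM2, and the submitters' processing notes name RMA and affy (versions: not given in the sources used here). The RMA method corrects background, quantile normalizes the arrays and summarises probes, which brings the arrays near a common distribution and compresses small signals. The array medians of the deposited values still ran from 8.56 to 8.62. Repeating the quantile normalization moved the change of Nrg1 from 0.44 to 0.47 and that of Egfr from -0.38 to -0.34. The platform annotation gave 1 symbol for 21789 probe sets, several for 1621 and none for 12146. Of these gene identifiers 21698 were found among RefSeq genes of GRCm38.p6, with 0 symbols to update. Each of 19938 genes was represented by its brightest probe set. The groups were tested in limma 3.58.1 (lmFit and eBayes, R 4.3.3) without covariates, with Benjamini-Hochberg adjustment and a threshold of 0.05. The fit was tested on simulated data with independent noise for each gene. Those data held no spread shared between genes, so they cannot show how the fit behaves on these arrays. The number of arrays limits the precision.

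The members, gene lists, tests and alternatives were chosen with earlier results of these data known. Genes named were the members and the 5 genes nearest to the called member. Of each pathway list they were the genes called, or else the 2 with the largest change. Of the epithelium, glia and neural crest, subepithelial mesenchyme and smooth muscle lists they were the 2 with the largest change. Other genes in the text were named outside this rule. Lists of endothelium, leukocyte, erythroid, mesothelium, liver, pancreas, stomach region and striated muscle markers were also read. Alternatives were a block for replicate number, the omission of single arrays, a filter on dim genes, other uses of several probe sets, repeated quantile normalization, centring on the 75th percentile, an intensity trend, robust eBayes, array weights and a Y-linked covariate. A covariate for the largest component of the spread within groups and array weights estimated gene by gene were chosen after seeing the data.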

Additional observations from a re-analysis of the deposited data

How the results depend on the processing

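Same-numbered arrays deviated from their group means with correlations of -0.104, 0.521 and 0.065. With 3 arrays a group these values cannot settle whether the replicate numbers pair the arrays. With the replicate numbers as a block, 698 genes, 2 members (Nrg1 and Egfr, the latter at an adjusted p of 0.00837 in limma) and 3 pathway genes were called. The counts as reported were 196, 1 and 0. Over all genes the count was 120 with centring on the 75th percentile, 336 with an intensity trend, 22 with the Y-linked covariate, 937 with the component covariate and 4110 with array weights, whose estimation stopped before it converged, or 1850 with weights estimated gene by gene. Without single arrays it ran from 32 to 247. The component covariate lowers the residual spread by its construction. Members called numbered 0 with the Y-linked covariate, 3 with array weights, 2 with either the component covariate or gene by gene weights, and from 0 to 1 without single arrays. Pathway genes called numbered 17 with array weights, 9 with gene by gene weights, 6 with the component covariate, 1 each (Lrig1) with the dim gene filter, repeated quantile normalization or the intensity trend, and from 0 to 1 without single arrays. The sign of Erbb4 turned with centring on the 75th percentile (0.0008), array weights (0.03) and gene by gene weights (0.02). The sign of Ereg (-0.001) and Nrg3 (-0.01) turned with the Y-linked covariate, and that of Bace1 (0.01) with array weights. For the other members the sign was kept in each of the 18 alternatives, and the cause of the moves was not tested otherwise. Ereg and Erbb4 gave no value under the dim gene filter, and signals that near the dim range limit what can be seen of them.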

Other observations

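By list median, leukocyte, endothelium, mesothelium, erythroid, pancreas and stomach region markers were lower in SmoM2, and striated muscle markers higher. In limma 0 of 11 leukocyte and 0 of 10 endothelium markers passed over all genes, and all of them had negative changes, with medians of -0.19 and -0.15. Of 11 mesothelium markers 3 fell (Wt1, Bnc1 and Krt7) and 0 rose, with a median of -0.20. Of 6 measured pancreas markers 2 fell, Cpa1 and Gcg. All 11 markers of cardiac and skeletal muscle had positive changes with a median of 0.13, and 0 passed in limma. The 2 largest were those of Acta1 (0.41, limma adjusted p = 0.0635) and Actc1 (0.28, adjusted p = 0.261). Both genes lay above the dim range, with groups that did not overlap. Several others lay in or just above the dim range, such as Ttn (7.65 to 7.97), Myh6 (7.82 to 8.10) and Myl7 (8.27 to 8.40). Little can be read from the changes of those genes. Of 7 erythroid markers 0 passed, with a median of -0.21, and of 7 liver markers 0 passed, with a median of 0.03. Liver changes went both ways, from -0.63 (Ambp) to 0.61 (Alb). The 2 liver genes whose groups did not overlap, Ambp and Ttr, were lower in SmoM2. Of 12 genes of stomach regions 2 fell, Cym and Gata6.

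A further probe set is annotated to both Erbb2 and Sympk, so it names neither. Its signal was 7.44, 7.28 and 7.54 in wild type and 7.54, 7.27 and 7.27 in SmoM2, inside the dim range.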
